A study of Mus musculus with 36 samples.

Results

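Accessibility of the chromatin around 6 genes for inflammatory CC chemokines, Ccl2, Ccl3, Ccl4, Ccl5, Ccl7 and Ccl12, was followed by ATAC-seq across ligand stimulations of mouse bone marrow-derived dendritic cells. In ATAC-seq a transposase cuts open chromatin, so the count at a peak reflects how open that stretch is. A peak belonged to these loci if it overlapped 1 of the 6 gene bodies or the 10 kb on either side of it, and 29 of the 119751 deposited peaks did. All 29 lie on chromosome 11 of mm10 and all passed the filter on low counts. They fall into 4 loci, with 10 peaks around Ccl5, 10 around the neighbours Ccl3 and Ccl4, 2 around Ccl12 and 7 around the neighbours Ccl2 and Ccl7.

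The cells came from bone marrow of female C57BL/6J mice 6 to 8 weeks old, carried no genetic change that the labels name, and were grown with GM-CSF at 15 ng/mL. Each of 18 groups had 2 libraries, made after 6 h. The groups were an unstimulated control (Ctrl) and 6 single ligands, namely LPS (L), SeV (S), Zymosan depleted (Z), PAM (P), 3',3'-cGAMP (cG) and HMW (H), with 8 pairs (PL, PH, LH, PS, PcG, ScG, ZS, ZcG) and 3 triplets (PLH, PScG, ZScG) of these. LPS is a bacterial cell wall component sensed by TLR4, cGAMP is a cyclic dinucleotide sensed by STING, and zymosan is a yeast cell wall preparation. Nothing in the labels ties the libraries of a group to separate mice or cultures, so p-values measure the spread between these libraries, which may be technical. GM-CSF cultures of bone marrow are mixed, and the labels describe no sort. A larger share of cells with an open site and a more open site per cell therefore cannot be told apart here.

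CC chemokines are small secreted proteins that draw leukocytes along a gradient by binding G protein-coupled receptors. Ccl3 and Ccl5 bind CCR1. These ligands and Ccl4 attract T cells, NK cells and macrophages. Ccl2, Ccl7 and Ccl12 bind CCR2 and recruit monocytes. Dendritic cells and macrophages release all of these ligands after pattern recognition receptors are engaged. Several of the genes are induced by NF-kB, and Ccl5 is induced by interferon regulatory factors as well.

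The start sites of Ccl3 and Ccl12 each lie inside a peak described below, so the 250 bases before each are shown here, 5' to 3' on the gene's own strand, from RefSeq (GRCm38.p6, the assembly that mm10 represents). Of the 6 genes these are the 2 in the promoter table used. Capitals mark the TATAA motif, letters found in the core of a TATA box. Whether either marked stretch serves as a TATA box was not tested.
Ccl3, chr11:83649379-83649628, minus strand: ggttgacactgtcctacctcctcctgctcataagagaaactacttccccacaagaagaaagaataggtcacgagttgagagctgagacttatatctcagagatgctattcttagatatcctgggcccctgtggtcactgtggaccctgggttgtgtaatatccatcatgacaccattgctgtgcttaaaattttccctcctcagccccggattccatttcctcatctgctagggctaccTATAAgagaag
Ccl12, chr11:82101595-82101844, plus strand: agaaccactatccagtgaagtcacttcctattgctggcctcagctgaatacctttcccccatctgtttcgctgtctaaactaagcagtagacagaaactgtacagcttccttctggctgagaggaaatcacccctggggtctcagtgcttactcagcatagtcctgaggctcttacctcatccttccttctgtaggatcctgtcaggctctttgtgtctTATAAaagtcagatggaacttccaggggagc
The motif starts 11 bases before the start site of Ccl3 and 31 bases before that of Ccl12. Searched on the gene's strand between 5 and 50 bases before the start, TATAA was in 4.92% of 32536 promoters of the same length, and in 3 of the 11 other CC chemokine promoters in the table (Ccl8, Ccl20, Ccl25). It was added after 4 other motifs had been searched on both strands. Neither window held the NF-kB motif (in 454 of all 32536 promoters), the interferon-stimulated response element (969), the AP-1 motif TGANTCA (2189) or the PU.1 motif GAGGAAGT (798). A match or its absence describes these letters in this window only. No promoter is shown for Ccl2, Ccl4, Ccl5 and Ccl7.

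Libraries held 8181254 to 21985891 counts outside the mitochondrial genome. Levels are given as CPM, these counts scaled to a common library size with TMM factors, and compared between peaks only per kb of peak length. The mitochondrial share of counts was 58.3% to 63.0% on average in 5 groups (Ctrl, Z, ZcG, ScG, ZScG) and 44.4% to 54.5% in the other 13. The labels give no batch. For 13 stimulations a difference from control therefore cannot be told apart from this difference in share, whereas Z, ZcG, ScG and ZScG share the high level of the control. Of 12 dendritic cell and macrophage marker genes, 11 had a peak over the start site or, for the 6 missing from the promoter table (Cd74, H2-Ab1, Csf1r, Spi1, Adgre1 and Cd14), over either annotated end, and Zbtb46 had none, with summed levels of 236 to 247 CPM in the control libraries and 231 to 290 over all. T cell, B cell, mast cell and basophil, and erythroid markers had no such peak. Of 6 neutrophil markers 1 did (S100a8, 6.37 to 21.6 CPM, control 17.2 to 20.5), and of 3 NK cell markers 1 did (Klrb1c, 7.46 to 18.5 CPM, control 15.0 to 16.8). The part of these in the results was not tested.

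Calls at the CC chemokine loci were mostly higher after stimulation, and most of these calls were at Ccl5 and Ccl3-Ccl4. Each of the 17 stimulations was compared with the control at each of the 29 peaks, with edgeR's quasi-likelihood test and an adjusted p under 0.05 as the threshold for a call, and all 17 comparisons share the same 2 control libraries. Of the 493 comparisons, 228 were called higher and 10 lower. Of the 29 peaks, 25 were called in at least 1 stimulation, 24 of them higher in at least 1 and 2 lower in at least 1. The Ccl5 locus was called higher in 117 of 170 comparisons (68.8%, median log2 fold change 1.73) and Ccl3-Ccl4 in 82 of 170 (48.2%, 0.81), each with 0 lower calls. Ccl12 had 14 higher calls and 1 lower of 34 (41.2% higher, 0.61), and Ccl2-Ccl7 had 15 higher and 9 lower of 119 (12.6% higher, 0.26). Of all 119464 tested peaks, 4964 (Z) to 22737 (PScG) were called higher in a stimulation, with the shares given below. The 12.6% of Ccl2-Ccl7 lies inside the range of those shares, and the other loci lie above it. The median over all tested peaks was between -0.04 and 0.04 in every stimulation.

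Among single ligands, the counts at the 29 peaks were read against the share of all 119464 tested peaks called in the same direction. P gave 11 higher and 1 lower (11.1% and 9.41% of all peaks), L gave 14 higher and 0 lower (11.3% and 11.1%), and H gave 10 higher and 0 lower (5.23% and 5.44%). S gave 14 higher and 1 lower (14.1% and 13.8%), cG gave 14 higher and 0 lower (11.6% and 11.6%), and Z gave 4 higher and 0 lower (4.16% and 1.75%). The 12 called peaks of P are 41.4% of the 29, and the 15 of S are 51.7%. Both shares lie above those of all peaks in either direction, 20.5% and 27.9%. For L the same comparison was 14 of 29 against 22.3%, for cG 14 against 23.3% and for H 10 against 10.7%. For Z the share was 13.8% against 5.91% in either direction, on 4 peaks, and the count fell to 2 without either control library and to 1 without the second Z library. The count for H fell to 6 without the first H library, and that for cG to 9 without the second control library.

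The pairs and triplets gave 10 to 19 higher calls of 29. Pairs gave 14 higher in PL (13.8% of all peaks), 12 in PH (13.6%), 12 in LH (11.3%), 16 in PS (17.3%), 14 in PcG (16.8%), 13 in ScG (14.4%), 16 in ZS (14.4%) and 10 in ZcG (11.4%). Triplets gave 17 in PLH (14.9%), 19 in PScG (19%) and 18 in ZScG (16.2%). LH, PS and PScG had no lower call (10.4%, 16.2% and 18.1% of all peaks) and the others 1 each (10.3% to 16.2%). In either direction all peaks were called at 27.3% in PL, 26.4% in PH, 21.8% in LH, 33.4% in PS, 33% in PcG, 27.7% in ScG, 28.3% in ZS, 21.6% in ZcG, 29.7% in PLH, 37.1% in PScG and 32.3% in ZScG. The 29 peaks were called at 37.9% in ZcG, the lowest of these, and at 65.5% in PScG. Without the second control library, ZScG had 12 calls in either direction in place of 19. With the mitochondrial share as a covariate, the 238 calls over the 17 stimulations fell to 157.

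**Figure D1:**
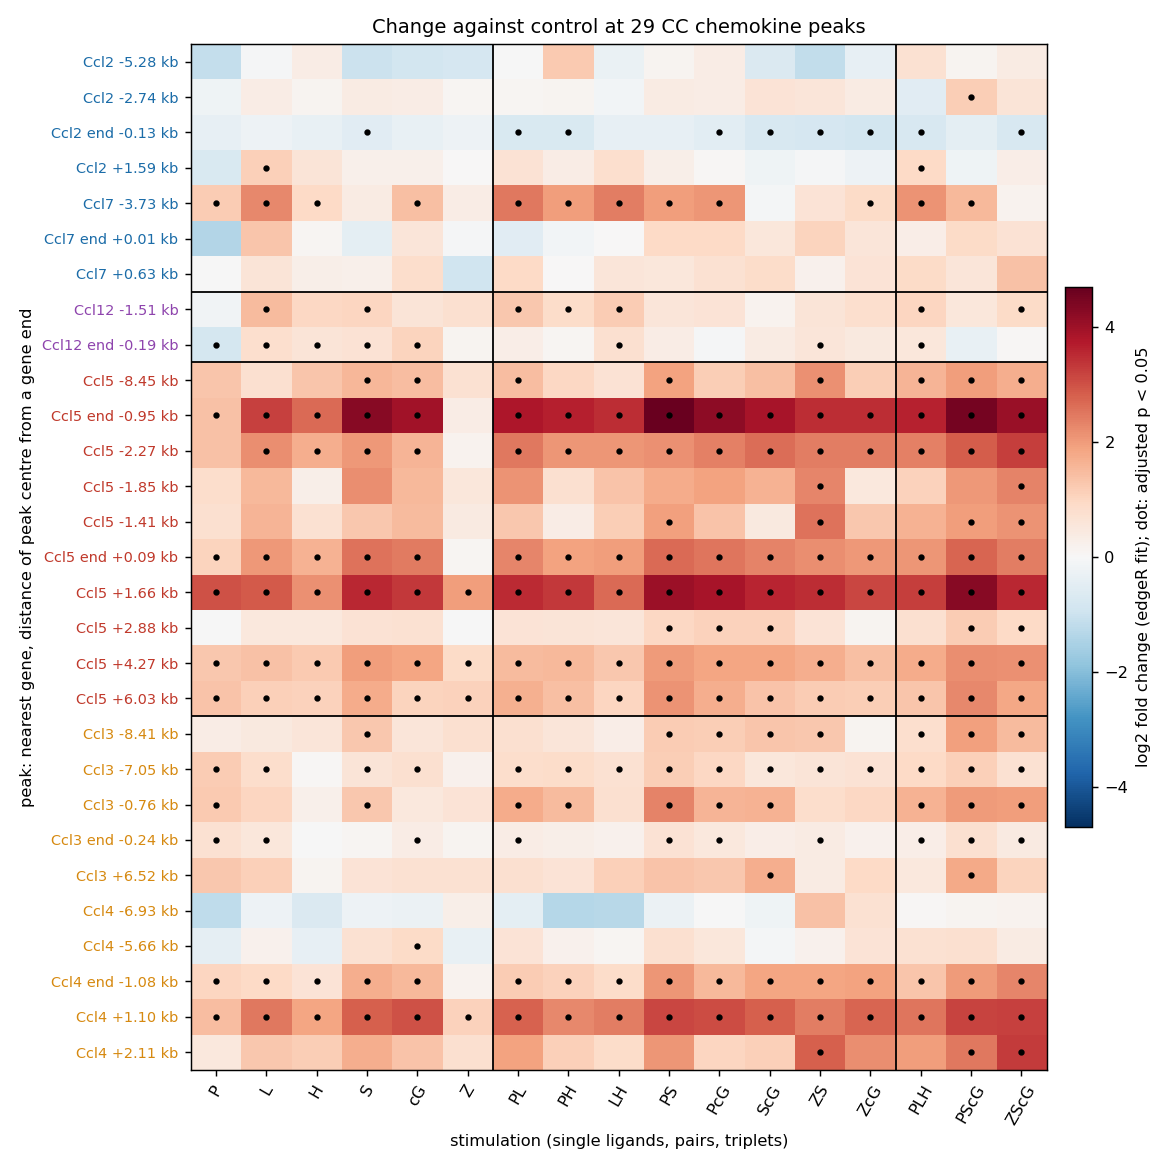
Log2 fold change of accessibility against the control at the 29 peaks (rows, in chromosome order within each locus) for the 17 stimulations (columns), on 1 colour scale, with a dot where the change was called at an adjusted p under 0.05. Dots fill 16 or 17 columns at both Ccl5 ends, at 3 rows beyond Ccl5 and at the Ccl4 end, while the 7 Ccl2-Ccl7 rows hold 15 higher and 9 lower calls.

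The calls were unevenly spread over the 29 peaks. Those called higher in at least 15 of the 17 stimulations number 9, measure 545 to 6004 bp and had mean levels of 2.36 to 59.6 CPM. The 8 peaks under 300 bp had means of 0.414 to 1.20 CPM and 0 to 4 calls each, 8.09% of their comparisons. The remaining 12 peaks, of 410 to 1846 bp, had 1 to 12 calls each. The 4 peaks with no call were all short, and include the 1 over the end of Ccl7. Depth limits what could be called at the short peaks. The level summed over the 29 peaks was 112 ± 9.04 CPM (SD, n = 2) in the control and 136 ± 1.88 in Z, the lowest stimulation, and 394 ± 1.12 in PScG, the highest.

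At Ccl5, a ligand of CCR1 and CCR3 also called RANTES, the widest peak of the 29 covers the end of the gene at the lower coordinates together with part of the neighbouring gene Heatr9 (chr11:83521831-83527834, 6004 bp). Its level was 5.13 and 4.44 CPM in the 2 control libraries. It was 4.85 and 7.03 CPM in Z, 11.4 and 13.5 in P, 31.0 and 29.5 in H, and 49.6 and 39.0 in L. It reached 64.3 and 83.5 CPM in cG and 93.8 and 91.0 in S. Of the 34 stimulated libraries, 33 lay above both controls, the exception being 1 Z library. The peak was called higher in 16 stimulations, with log2 fold changes of 1.38 ± 0.17 (SE) in P (edgeR adjusted p 1.5e-11), 2.66 in H, 3.21 in L, 3.95 in cG and 4.27 ± 0.14 in S (5.3e-65). In Z it was 0.34 ± 0.21 and not called (edgeR adjusted p 0.38).

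Combinations extended this range. PS gave 129 and 110 CPM, PScG 110 and 106, and PcG 82.2 and 92.4. The largest log2 fold change at any of the 29 peaks was 4.64 ± 0.14 for PS here (edgeR adjusted p 1.5e-70). ZS, with 56.4 and 49.4 CPM, and ZcG, with 51.4 and 54.2, lay below S and cG alone. When the 18 groups were ordered by mean level, the neighbours Z and P, P and H, and H and L differed (edgeR adjusted p 3.0e-04 or lower). The differences between the control and Z, and between all neighbours from L up to PS, did not pass.

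The other end of Ccl5, at the higher coordinates, has a peak of its own (chr11:83530101-83531106). Its level was 3.60 and 3.47 CPM in control, 8.40 and 6.43 in P, 17.7 and 11.9 in L, 10.7 and 11.6 in H, 16.2 and 24.9 in S, 18.2 and 20.5 in cG, and 4.46 and 3.15 in Z. All stimulated libraries but 1 of Z lay above both controls. It was called higher in the same number of stimulations as the broad peak, 16, and not in Z (0.08, edgeR adjusted p 0.92). The changes were smaller in size, from 1.06 ± 0.23 in P to 2.74 ± 0.20 in PScG on the log2 scale. Per kb it was the more open of the pair, at 15.1 against 9.93 CPM per kb over all libraries. No stimulation call at either end was lost when any 1 library was left out.

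Beyond that end lie 3 peaks that were called higher in all 17 stimulations. The peak centred 1.66 kb beyond the gene (chr11:83531561-83532805) had 1.31 and 0.965 CPM in control, 4.99 and 3.88 in Z, 4.96 and 5.09 in H, 9.55 and 8.52 in P, 9.11 and 7.77 in L, 12.9 and 13.6 in S, and 9.71 and 13.3 in cG. PScG was highest, at 20.8 and 23.2 CPM. All 34 stimulated libraries were above both controls. The log2 fold change was 1.95 ± 0.35 in Z (edgeR adjusted p 1.2e-05), 2.99 ± 0.29 in P, 3.54 ± 0.28 in S and 4.28 ± 0.27 in PScG. P thus stood above L and H here in mean level, in place of below both as at the 2 ends of the gene, and of these the difference from H was called (0.85 ± 0.21, edgeR adjusted p 0.0016). All 17 of these calls were kept without any 1 library.

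The peak 4.27 kb beyond Ccl5 (chr11:83534232-83535340) had 5.79 and 4.82 CPM in control, 8.13 and 11.5 in Z, 21.4 and 19.7 in S and 26.4 and 22.4 in PScG. Every stimulated library exceeded both controls there too. The log2 fold change was 0.91 ± 0.22 in Z (edgeR adjusted p 0.0022). The Z call was lost without the second control library (0.78, edgeR adjusted p 0.078) or without the second Z library (0.61, 0.233). A further peak, 6.03 kb beyond (chr11:83536008-83537090, chosen after its values were seen), ranged from 1.01 in LH to 2.27 in PScG on the same scale, and 4 of its 17 calls were lost without 1 library or another. Of 3 other peaks, chosen after their values were seen, the 545 bp peak inside the gene at chr11:83527979-83528523 was called in 15 stimulations, from 0.437 and 0.579 CPM in control to 4.91 and 4.96 in ZScG (3.25 ± 0.51, edgeR adjusted p 3.4e-08), with P (1.37, 0.074) and Z (0.17, 0.94) the exceptions. The far peak in Heatr9 (chr11:83517121-83517530) had 8 calls, each lost without 1 library or another, and the 821 bp peak 2.88 kb beyond the gene had 5, in PS, PcG, ScG, PScG and ZScG.

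**Figure D2:**
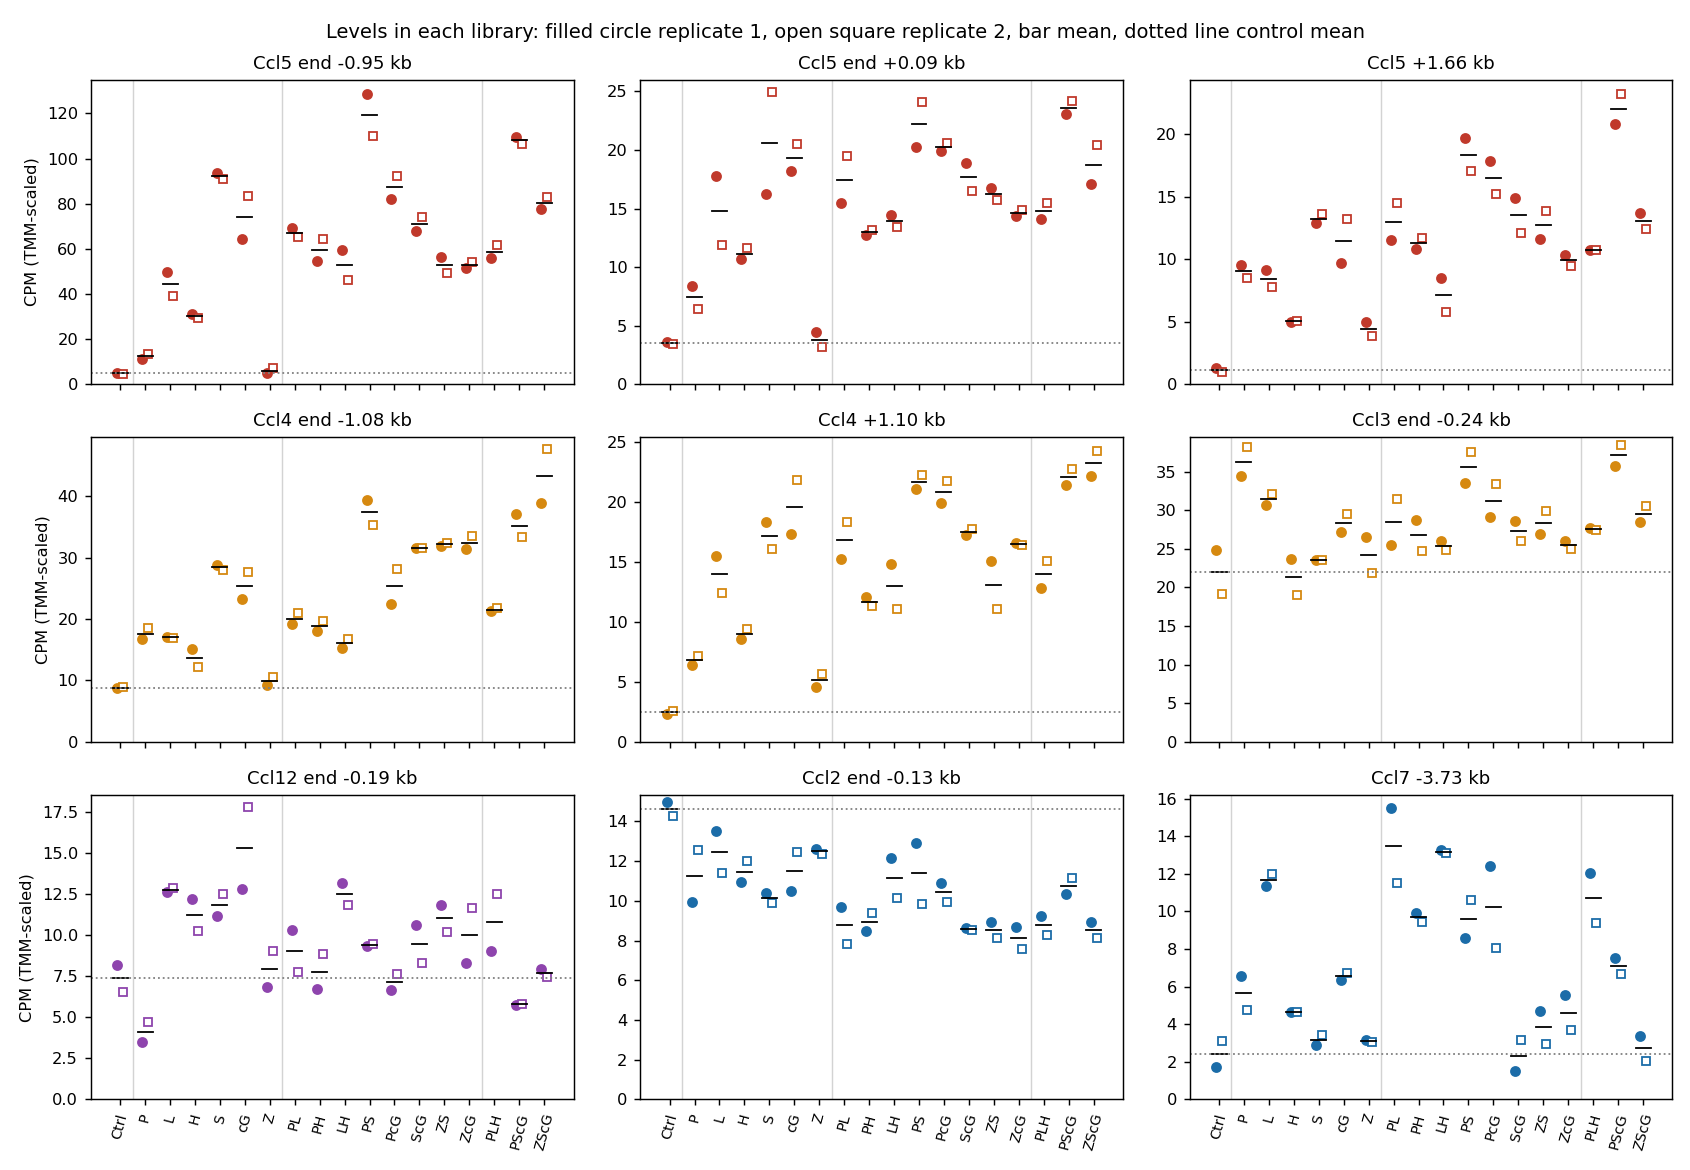
Accessibility (CPM, linear axis from 0, separate for each panel) in each of the 36 libraries at 9 peaks of the CC chemokine loci. Points are libraries and the bar is the mean of the 2 libraries of a group. At the broad Ccl5 peak the controls are 5.13 and 4.44 and PS 129 and 110 CPM, while at the Ccl2 end all stimulated libraries lie below the controls.

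Ccl3 and Ccl4, also called MIP-1 alpha and MIP-1 beta, are neighbours whose annotated models overlap, since the Ccl4 model spans 16060 bp and reaches into Ccl3. The peak over the far end of Ccl4 (chr11:83662136-83665073) had 8.74 and 8.87 CPM in control, 9.18 and 10.5 in Z, 16.8 and 18.5 in P, 17.1 and 16.9 in L, 15.1 and 12.2 in H, 28.9 and 28.0 in S and 23.3 and 27.7 in cG. The highest group was ZScG, at 39.0 and 47.7 CPM. Every stimulated library was above both controls. It was called higher in 16 stimulations, with log2 fold changes from 0.64 ± 0.16 in H (edgeR adjusted p 0.0031) through 1.00 in P and 1.69 in S to 2.29 ± 0.15 in ZScG (1.1e-31). Z was not called (0.17, edgeR adjusted p 0.67), and the H call was lost without the first H library (0.46, 0.159).

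The neighbouring peak, 1.10 kb beyond the same end (chr11:83665111-83666449), was called higher in all 17 stimulations. It rose from 2.29 and 2.60 CPM in control to 18.3 and 16.1 in S, 17.3 and 21.8 in cG and 22.1 and 24.3 in ZScG. Log2 fold changes were 1.07 ± 0.28 in Z (edgeR adjusted p 0.0058), 1.46 ± 0.25 in P, 1.86 in H, 2.49 in L, 2.80 in S, 2.99 in cG and 3.23 ± 0.22 in ZScG. The Z call was lost without the first control library (0.98, edgeR adjusted p 0.086) or without the second Z library (0.89, 0.151). The other 16 calls were kept.

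Over the start site of Ccl3, which is also where the Ccl4 model ends, the peak (chr11:83648211-83650056) was already open in control, at 24.9 and 19.2 CPM. Per kb over all libraries it had the highest mean of the 29, at 15.3 CPM per kb, closely followed by the upper Ccl5 end at 15.1. In control alone it was not the most open per kb. The shorter Ccl2 end peak (713 bp, against 1846 bp here) then had 15.0 and 14.3 CPM, which is more per kb. The Ccl3 peak encloses the Ccl3 sequence printed above. P reached 34.4 and 38.1 CPM, L 30.7 and 32.1, cG 27.1 and 29.5, S 23.5 and 23.6, and H 23.6 and 19.0. P and L lay above both controls, S and H between or near them. The log2 fold change was 0.72 ± 0.13 in P (edgeR adjusted p 2.2e-06), 0.52 ± 0.13 in L (0.00097), 0.10 ± 0.13 in S (0.62) and -0.04 ± 0.13 in H (0.91). The 10 higher calls rested partly on 1 control library. Without the second, 7 of them were lost, among them L (0.34, edgeR adjusted p 0.132) and cG (0.19, 0.461), while those of P, PS and PScG were kept without any 1 library. With the mitochondrial share as a covariate these 3 did not pass (P 0.59, edgeR adjusted p 0.081, PS 0.53, 0.242, and PScG 0.58, 0.186), and of the 10 only ZScG did.

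Further peaks of the Ccl3-Ccl4 locus, all but that inside Ccl4 chosen after their values were seen, differed in which stimulations were called against the control. A call in 1 ligand and not in another does not show that the 2 differ. In the direct comparison of S with cG, given below, no peak of this locus was called. The peak 7.05 kb beyond Ccl3 on the other side (chr11:83639977-83641612) had 14.5 and 9.65 CPM in control, and its highest group was P, with 25.6 and 29.8 CPM. Its log2 fold change was 1.21 ± 0.15 in P (edgeR adjusted p 1.2e-11), 0.81 in L, 0.76 in cG, 0.62 in S and 0.06 in H (0.88), and 7 of its 15 higher calls were lost without the second control library. The adjoining peak (chr11:83638942-83639920) was called in S (1.28 ± 0.29, edgeR adjusted p 0.00017) and in no other single ligand, and was highest in PScG at 10.5 and 10.9 CPM, against 3.06 and 2.60 in control. Inside the Ccl4 model, the peak at chr11:83658788-83659257 was called in cG alone of the 17 (0.89, edgeR adjusted p 0.041), a call lost without any 1 of the 4 libraries compared. The peak at chr11:83646564-83647604, beside the lower end of Ccl3, was called higher in 10 stimulations, led by PS at 7.08 and 4.32 CPM (2.32 ± 0.40, edgeR adjusted p 3.9e-07), but its controls were uneven at 0.546 and 1.64 CPM, and 7 of the calls were lost without the first. A 217 bp peak 2.11 kb beyond Ccl4, with 4 counts in the 2 control libraries together, was called in ZS, PScG and ZScG.

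Ccl12, a mouse ligand of CCR2 also called MCP-5, had over its start site the 1 peak of the 29 called lower in P than in control. The peak over its start site (chr11:82101062-82102245), which encloses the printed sequence, had 8.19 and 6.56 CPM in control and 3.51 and 4.69 in P. It had 12.6 and 12.9 CPM in L, 12.2 and 10.3 in H, 11.2 and 12.5 in S, 12.8 and 17.8 in cG, and 6.82 and 9.02 in Z. Both P libraries lay below both controls, and all libraries of L, H, S and cG above them. The log2 fold change was -0.84 ± 0.24 in P (edgeR adjusted p 0.0057), 0.80 ± 0.21 in L (0.002), 0.62 in H (0.043), 0.69 in S (0.0072) and 1.06 ± 0.21 in cG (2.0e-05).

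Most of these calls rested on single libraries. The P call at Ccl12 was lost without the first control library (-0.66, edgeR adjusted p 0.133) or without the first P library (-0.65, 0.115). Those of L (0.64, 0.079), S (0.54, 0.139) and H (0.46, 0.311) were lost without the second control library, and that of cG was kept without any 1. With the mitochondrial share as a covariate, 0 of the 8 calls remained, with P at -0.83 (edgeR adjusted p 0.19). Scaling by total counts gave 9 higher and 0 lower calls, with P at -0.51 (0.13). The peak 1.51 kb before Ccl12 (chr11:82100064-82100601, chosen after its values were seen) was called higher in 7 stimulations, with L highest at 7.21 and 5.88 CPM against 2.08 and 2.51 in control (1.50 ± 0.33, edgeR adjusted p 0.00017). P, at 1.76 and 2.31 CPM, did not pass (-0.17, 0.80). Of these 7 calls, 5 were lost without 1 library or another, and 0 were made with the covariate.

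Ccl2 (MCP-1), the main monocyte attractant of the family, had the only end peak with lower calls and no higher one. The peak (chr11:82035091-82035803) had 15.0 and 14.3 CPM in control. In the 34 stimulated libraries it ranged from 7.57 to 13.5, with a median of 9.94 CPM, and every one lay below both controls. The log2 fold change was called lower in 9 stimulations, from -0.48 ± 0.18 in PcG (edgeR adjusted p 0.032) to -0.85 ± 0.21 in ZcG (0.00075). S was the only single ligand called (-0.53, edgeR adjusted p 0.023), and this call was lost without any 1 of the 4 libraries compared, as was that of PcG. In the other single ligands the value ran from -0.23 in Z to -0.38 in P, none of them called. Each of the covariate and scaling by total counts left 4 of the 9 calls, in ScG, ZS, ZcG and ZScG, of which ScG, ZcG and ZScG share the mitochondrial level of the control. Scaling by total counts, which moved the median of all peaks by up to 0.45, also turned the sign in L (0.19) and PS (0.03).

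Between Ccl2 and Ccl7 the direction was the opposite. The peak at chr11:82041480-82042485, chosen after its values were seen, had 1.75 and 3.09 CPM in control, 11.4 and 12.0 in L, 15.5 and 11.5 in PL and 13.3 and 13.1 in LH. Other levels were 6.57 and 4.77 CPM in P, 6.36 and 6.73 in cG, 4.64 and 4.66 in H, 2.88 and 3.44 in S, 3.15 and 3.04 in Z and 1.49 and 3.17 in ScG. L and pairs that hold it stood well above the controls, and so did some combinations without L. These were PcG at 12.4 and 8.03 CPM, PH at 9.94 and 9.43, PS at 8.59 and 10.6 and PScG at 7.54 and 6.68. ZS had 4.73 and 2.95 CPM, ZcG 5.55 and 3.67 and ZScG 3.35 and 2.07. Libraries of S and Z lay between or just above the controls, and 1 ScG library lay below both. The log2 fold change was 2.25 ± 0.27 in L (edgeR adjusted p 3.9e-12), 1.42 ± 0.29 in cG (4.9e-05), 1.21 ± 0.30 in P (0.00092) and 0.92 ± 0.30 in H (0.031). In S it was 0.37 ± 0.31 (0.41). With the mitochondrial share as a covariate, L was still called (2.36, edgeR adjusted p 0.0081). P (1.28, 0.075), cG (1.52, 0.10) and H (0.99, 0.21) were then not called. The P call was lost without the first control library (0.89, edgeR adjusted p 0.080), and the H call without that library (0.60, 0.39) or either H library.

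Ccl7 itself, the gene for MCP-3, had little signal. The peak over its end (chr11:82045625-82045824, 200 bp) averaged 0.414 CPM and was called in none of the 17 stimulations, which at this depth does not show that it stayed the same. Of the peaks at Ccl2, the one 2.74 kb before it (chr11:82032318-82033365) was called in PScG alone (9.52 and 11.2 CPM against 3.93 and 5.21 in control, 1.17 on the log2 scale), and the one 5.28 kb before it (chr11:82030145-82030443) in none. The peak 1.59 kb beyond Ccl2 (chr11:82038643-82039440, chosen after its values were seen) was called in L (1.13 ± 0.31, edgeR adjusted p 0.0031) and PLH (0.95). Both calls were lost without the second control library.

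**Figure D3:**
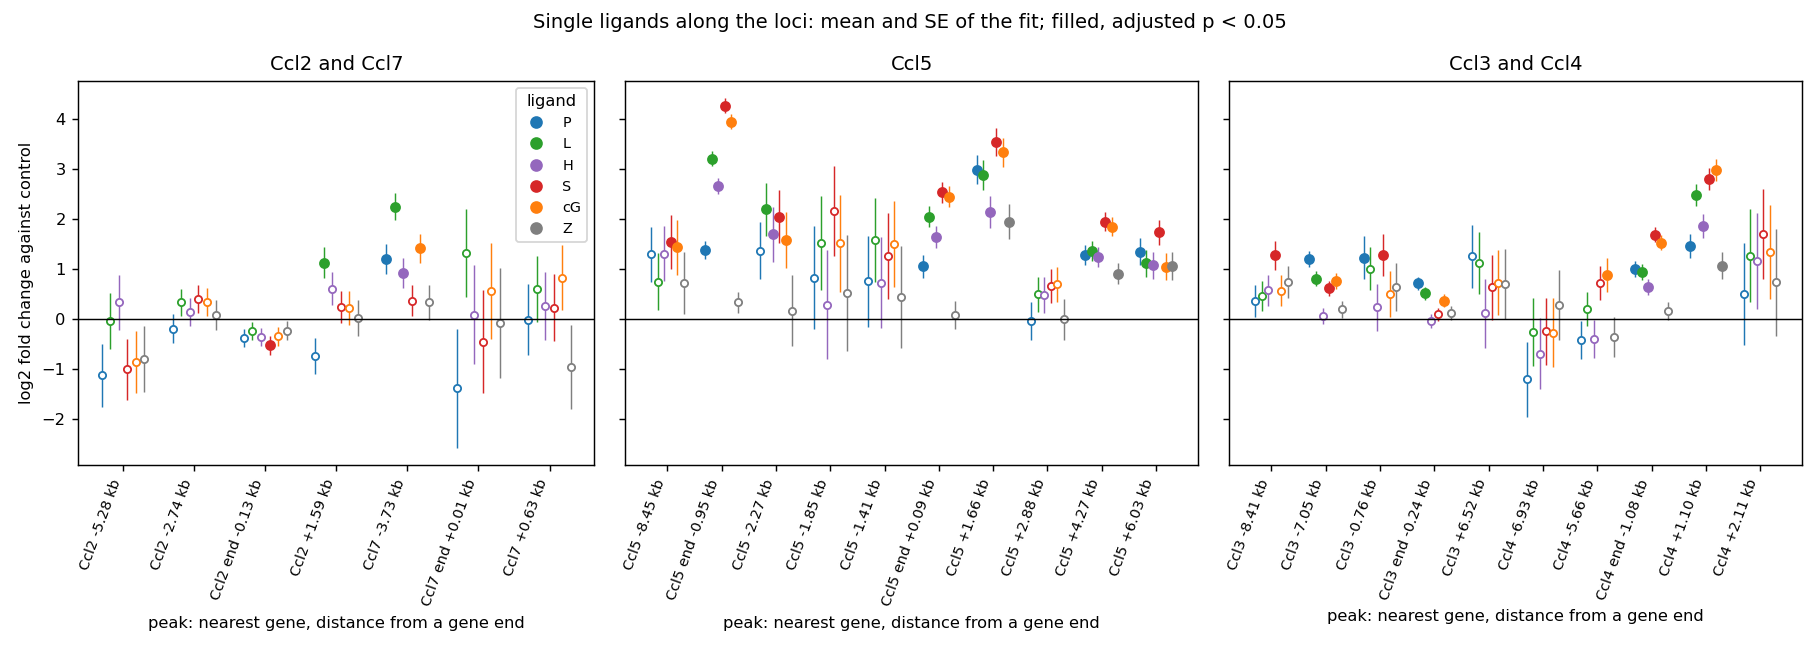
Log2 fold change against the control (with its SE as bars) at each peak for the 6 single ligands, with peaks in chromosome order along the Ccl2-Ccl7, Ccl5 and Ccl3-Ccl4 loci and called values filled. S and cG lead at the Ccl5 and Ccl4 ends (4.27 and 3.95 at the broad Ccl5 peak), L leads between Ccl2 and Ccl7 (2.25), and Z is near 0 at both Ccl5 ends (0.34 and 0.08) and at the Ccl4 end (0.17).

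The single ligands were also compared with each other, a contrast that does not use the control level. P, L, H, S and cG all lie in the set of groups with the lower mitochondrial share, so these comparisons are within that set. S and cG were called apart at few peaks, both here and over all peaks. The peak between Ccl2 and Ccl7 was lower in S than in cG (-1.05 ± 0.26, edgeR adjusted p 0.016), and it was the only 1 of the 29 called (0.948% of all peaks in either direction). That call was lost without any 1 of the 4 libraries compared (adjusted p up to 0.241). A p that misses the threshold does not show that the ligands act alike.

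P and S differed at 14 of the 29 peaks, with P lower at 11 and higher at 3 (11.6% and 12.9% of all peaks). The broad Ccl5 peak differed most, at 11.4 and 13.5 CPM in P against 93.8 and 91.0 in S (-2.89 ± 0.12, edgeR adjusted p 4.0e-53). P was also lower than S at the Ccl12 start (-1.53 ± 0.22), the other Ccl5 end (-1.48), the peak beyond Ccl4 (-1.34) and the Ccl4 end (-0.69). P was higher than S at the Ccl3 start site (0.62 ± 0.12, edgeR adjusted p 1.5e-05), at the peak 7.05 kb beyond the lower end of Ccl3 (0.59) and between Ccl2 and Ccl7 (0.84). Of the 14 calls, 8 were kept without any 1 library, among them the broad Ccl5 peak, the Ccl12 start and the Ccl3 start, while the call between Ccl2 and Ccl7 was lost without the first library of P (0.59, edgeR adjusted p 0.205) or of S. The calls between P and S thus ran in both directions. The 3 higher calls are a share of the 29 near that of all peaks (12.9%), while the share of the 11 lower ones lies above that of all peaks (11.6%). Against cG, P was lower at 8 and higher at 2 (11.1% and 12.7%), with the Ccl12 start at -1.90 ± 0.22.

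Against L, P was lower at 7 of the 29 and higher at 1 (5.18% and 5.9% of all peaks), with differences of -1.82 at the broad Ccl5 peak, -1.63 at the Ccl12 start and -1.87 at the peak 1.59 kb beyond Ccl2. Against H, it was lower at 5 and higher at 3 (4.95% and 7.18%), among the latter the Ccl3 start (0.76). Against Z it was higher at 7 and lower at 1 (5.13% and 5.94%), and that 1 was the Ccl12 start (-0.96 ± 0.24, edgeR adjusted p 0.0028). The Ccl12 start was therefore called lower in P than in each of the other 5 single ligands. The call against Z was lost without the first P library (-0.77, 0.083) or the second Z library (-0.70, 0.184), and those against L, H, S and cG were kept without any 1.

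L and S differed at 10 peaks. L was lower at 7 (5.04% of all peaks), with 49.6 and 39.0 against 93.8 and 91.0 CPM at the broad Ccl5 peak (-1.07 ± 0.10) and -0.74 at the Ccl4 end, and higher at 3 (4.81%). Between Ccl2 and Ccl7 it stood 1.88 ± 0.24 above S on the log2 scale (edgeR adjusted p 2.0e-10), and at the Ccl3 start 0.42 ± 0.12 above, a call lost without the second L library (0.38, edgeR adjusted p 0.114) or either S library. L differed from cG at 7 peaks, 3 higher and 4 lower (3.92% and 3.3%). H was lower than S at 9 and than cG at 9, with 0 higher in either (5.09% and 4.2% of all peaks lower, 3.97% and 3.15% higher), and lower than L at 6 with 0 higher (2.29% and 1.41% of all peaks). Over Z, L was higher at 11 peaks (5.67%), S at 11 (7.67%), cG at 10 (6.66%) and H at 3 (1.03%), with 0 lower. Those comparisons cross the mitochondrial sets. Over the 15 pairs of single ligands, 63 of 125 calls were kept without any 1 library, and 3 of the 10 between L and S were, including those at the broad Ccl5 peak and between Ccl2 and Ccl7.

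**Figure D4:**
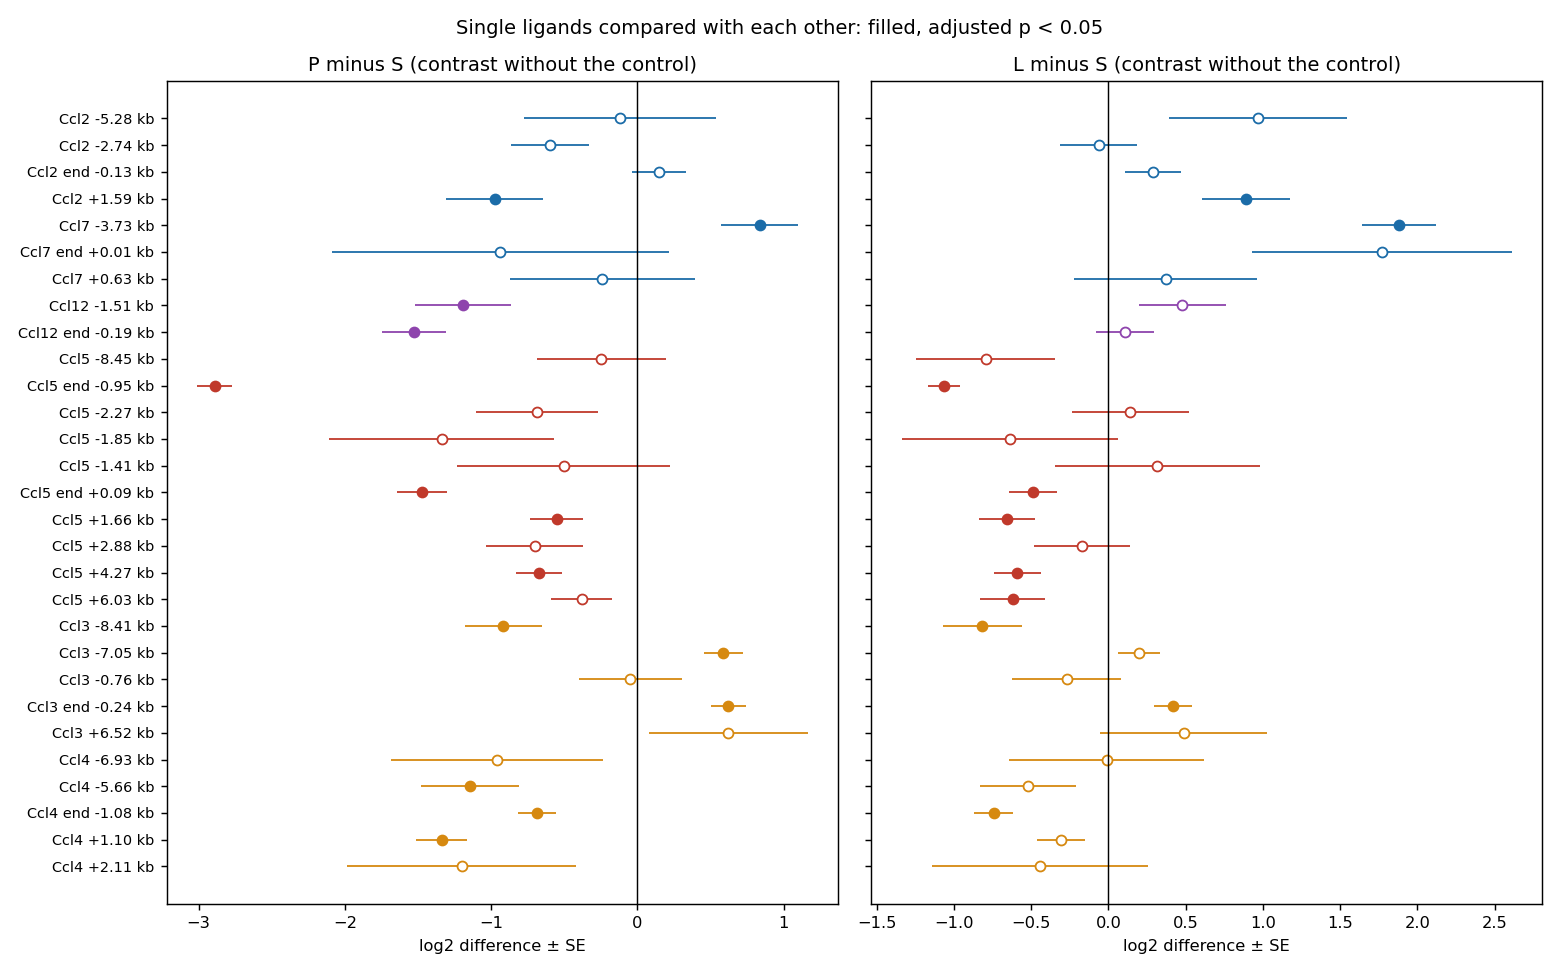
Log2 difference between single ligands at the 29 peaks, P minus S and L minus S, with its SE as bars and called differences filled. Values below 0 are lower than in S. The broad Ccl5 peak lies at -2.89 and -1.07, while the Ccl3 start site and the peak between Ccl2 and Ccl7 lie above 0 in both.

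Pairs were set against each of their single ligands to see what adding the second ligand changed. On top of P, each of the 4 partners raised the peaks over both ends of Ccl5. The broad one gained 2.43 ± 0.12 on the log2 scale with L, 2.25 with H, 2.81 with cG and 3.26 ± 0.12 with S (edgeR adjusted p 5.0e-39 or lower). The Ccl12 start, low in P, gained 1.15 with L, 0.93 with H, 0.79 with cG and 1.19 with S. Called counts were 8 higher in PL against P (4.16% of all peaks), 7 higher and 1 lower in PH (1.69% and 0.982%), 14 higher in PS (9.32%) and 11 higher in PcG (7.37%). The 1 lower call, in PH, was the Ccl3 start (-0.44 ± 0.12, edgeR adjusted p 0.020), lost without the second library of P (-0.36, 0.261) or of PH. The gains at the broad Ccl5 peak were kept without any 1 library. Those of H and cG at the Ccl12 start were lost without the first P library (0.74, edgeR adjusted p 0.176 for H and 0.60, 0.163 for cG) or the second of the pair.

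In the other direction, adding P changed fewer peaks. PS differed from S at 5, all higher (2.44% of all peaks). These were the peak between Ccl2 and Ccl7 (1.61 ± 0.24, edgeR adjusted p 1.6e-07), the Ccl3 start (0.60), the peak 7.05 kb beyond the lower end of Ccl3 (0.54), the Ccl4 end (0.39) and the broad Ccl5 peak (0.37). Of the 5, the first was kept without any 1 library. PcG was higher than cG at 4 and lower at 1 (5.59% and 3.52%), the Ccl12 start, which had 6.68 and 7.65 CPM in PcG against 12.8 and 17.8 in cG (-1.10 ± 0.20, edgeR adjusted p 6.9e-06). That lower call was kept without any 1 library and the 4 higher ones were not. PH was higher than H at 6 (5.27%) and PL higher than L at 1 (0.765%), the broad Ccl5 peak (0.61, and 0.44 with an edgeR adjusted p of 0.131 without the second L library). LH was higher than H at 4 (2.65%), and LH against L had 0 calls (0.0603% of all peaks in either direction, 2 of the 29 at an unadjusted p under 0.05 by edgeR).

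No peak of the CC chemokine loci was called higher in ScG than in S or than in cG. The share of all peaks called higher in these comparisons is not given here. The absence of higher calls therefore does not show that these loci differed from other peaks. ScG was lower than S at the broad Ccl5 peak alone, with 67.8 and 73.9 CPM against 93.8 and 91.0 (-0.38 ± 0.10, edgeR adjusted p 0.046, 0.102% of all peaks called lower). It was lower than cG at the Ccl12 start (-0.69) and between Ccl2 and Ccl7 (-1.52, 1.91% of all peaks). Both comparisons cross the mitochondrial sets, and each of the 3 calls was lost without 1 library or another, that against S without any 1 of the 4. The mitochondrial share was 58.1% and 51.0% in the ZS libraries and 47.1% and 48.7% in those of S. With Z, the broad Ccl5 peak was lower in ZS than in S (-0.81 ± 0.10, edgeR adjusted p 2.0e-09, 1.01% of all peaks), within the lower set by group means only. The same peak was lower in ZcG than in cG (-0.49 ± 0.11, 0.0022, 1.05%), across the sets. It was the only peak called in either, and ZS kept its call without any 1 library while ZcG lost it without the second cG library (-0.28, edgeR adjusted p 0.333) or the first ZcG library. Against Z alone, ZS was higher at 8 (6.63%) and ZcG higher at 7 and lower at 1 (4.13% and 4.95%), that 1 being the Ccl2 end (-0.62), a call lost without any 1 of the 4 libraries.

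The interaction term sets the change of a pair against the summed changes of its 2 single ligands on the log2 scale. All 52 pair interactions called at the 29 peaks were negative, so the pair lay below the sum. They numbered 7 in PL (4.2% of all peaks called lower), 3 in PH (1.09%), 7 in LH (2.62%), 6 in PS (2.91%), 8 in PcG (2.18%), 12 in ScG (7.52%), 5 in ZS (2.61%) and 4 in ZcG (1.74%). Of all peaks, 2.56% were called higher in PL, 0.465% in PH, 2.26% in LH, 1.67% in PS, 1.09% in PcG, 6.93% in ScG, 0.825% in ZS and 0.753% in ZcG, so lower calls outnumbered higher ones over all peaks too. The peaks 1.66 and 4.27 kb beyond Ccl5 and the 1 beyond Ccl4 were called in all 8 pairs. At the first of these the interaction ran from -1.82 ± 0.38 in PH (edgeR adjusted p 0.0011) to -3.31 ± 0.35 in ScG (7.8e-15). The largest was ScG at the broad Ccl5 peak, -4.34 ± 0.18 (edgeR adjusted p 6.6e-52), where S, cG and ScG alone had log2 changes of 4.27, 3.95 and 3.89. There LH followed with -2.40 ± 0.19 (2.7e-21).

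Every interaction contains the 2 control libraries, and the controls lie in the set with the higher mitochondrial share. With that share as a covariate, 26 of 52 calls were made. The numbers were 1 in PL, 1 in PH, 4 in LH, 4 in ScG and 0 in ZcG. Without 1 library or another, the count for PH fell to 1 and that for ZcG to 1, for PcG to 5 and for ZS to 3. Without any 1 library, the ScG count was 11 to 13.

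**Figure D5:**
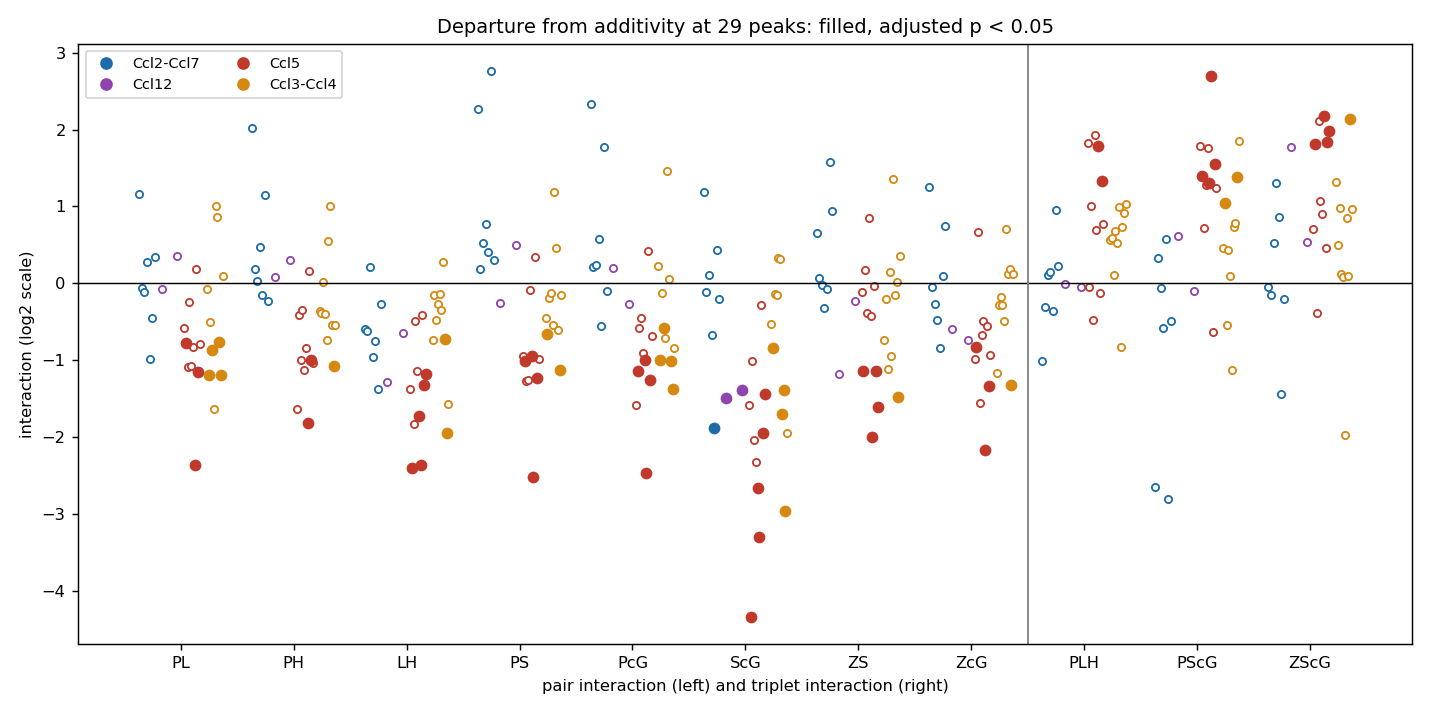
Pair interactions (left of the divider) and triplet interactions (right) on the log2 scale at the 29 peaks, 1 point each, coloured by locus, with called values filled. Called pair values all lie below 0, down to -4.34 for ScG at the broad Ccl5 peak, and called triplet values all lie above 0, up to 2.70.

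The triplet interaction asks the same of a triplet after its pairs and singles are taken into account. All 13 called values were positive. PLH had 2 (0.514% of all peaks called higher), PScG 6 (1.03%) and ZScG 5 (0.974%), where 0.27%, 0.972% and 0.921% of all peaks were called lower. The peak 1.66 kb beyond Ccl5 was called in each, at 1.78 ± 0.47 in PLH (edgeR adjusted p 0.035), 2.70 ± 0.44 in PScG (6.6e-06) and 2.17 ± 0.48 in ZScG (0.0034). The broad Ccl5 peak was called in PScG (1.39 ± 0.25) and ZScG (1.81 ± 0.28). The single and control libraries enter the pair and the triplet terms with opposite signs, so the 2 families are not independent. Leaving out 1 library took PLH to 0 or 1 and PScG to 3, and the covariate left 0, 1 and 1 in PLH, PScG and ZScG.

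Against their pairs directly, triplets had 13 calls at the 29 peaks over the 9 comparisons. Few of all peaks were called in these comparisons either, and on 29 peaks the counts of 0 lie close to those shares. PLH had 0 calls against PL, PH and LH (0%, 0.248% and 0.539% of all peaks in either direction; 1, 4 and 4 of the 29 at an unadjusted p under 0.05 by edgeR). PScG had 0 against PS (0.602%, 4 unadjusted) and 1 against PcG, the Ccl4 end (0.48 ± 0.12, edgeR adjusted p 0.045, 0.201% of all peaks higher). Against ScG, across the mitochondrial sets, it was higher at 6 and lower at 1 (2.11% and 2.43%), the lower 1 being the Ccl12 start (-0.71). ZScG was higher than ZS at the broad Ccl5 peak (0.60 ± 0.11) and beyond Ccl4 (0.83 ± 0.17), also across the sets, where 0.0142% of all peaks were called higher. It was higher than ZcG at 3 (0.948%), the broad Ccl5 peak among them (0.60 ± 0.11, edgeR adjusted p 1.7e-04), and had 0 calls against ScG (0.774% in either direction, 6 unadjusted). Without the second PScG library, 8 calls in place of 13 were made over the triplet comparisons, and 2 of the 13 were kept without any 1 library, the broad Ccl5 peak in ZScG against ZcG among them.

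Levels of the 29 peaks were correlated with each other over the 18 group means, as a description. The median Pearson r was 0.630 over the 112 pairs of peaks within a locus and 0.347 over the 294 pairs from different loci. It was 0.734 within Ccl5, 0.541 within Ccl3-Ccl4 and 0.610 between these 2 loci, and 0.154 within Ccl2-Ccl7. Ccl12 had 0.197 with Ccl5 and 0.0199 with Ccl3-Ccl4. All share libraries and depth. The genes elsewhere whose start-site peak followed an end peak most closely, of 10674 such peaks, were Oasl1 (r 0.928), Cd274 (0.910) and Zeb2 (0.909) for the broad Ccl5 peak and Rasa4 (0.923), Ifi35 (0.910) and Oasl1 (0.908) for the other Ccl5 end. Oasl1 and Ifi35 are interferon-stimulated genes, and Cd274 encodes the checkpoint ligand PD-L1. For the Ccl12 start they were Psmb10, an immunoproteasome subunit (0.900), and the neighbours 9930111J21Rik1 (0.896) and 9930111J21Rik2 (0.895).

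For the Ccl4 end, the closest was 1 peak shared by Ppfia3 and Mtag2 (r 0.949), then Etnk2 (0.939). For the Ccl3 start they were Sde2 (0.852) and a peak shared by Dusp2 and Gm46762 (0.852), where Dusp2 encodes a MAP kinase phosphatase. The Ccl2 end was followed less closely, by a peak shared by Tasor and Gm52095 (0.846) and by Tifab (0.843). The Ccl7 end, at 0.414 CPM, had r of 0.832 with Knl1, 0.822 with LOC108168645 and 0.814 with Dgkh, on few counts. Likeness was measured over 18 groups.

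The receptors of these ligands were followed by the same windows. Of 11 CC receptor genes with peaks, 61 peaks were tested, with 12 called higher and 0 lower in P, 10 and 2 in L, 7 and 1 in H, 9 and 4 in S, 12 and 3 in cG, and 5 and 1 in Z. In either direction these are 12 of 61 in P (20.5% of all peaks), 12 in L (22.3%), 8 in H (10.7%), 13 in S (27.9%), 15 in cG (23.3%) and 6 in Z (5.91%). With both directions pooled, the receptor peaks were thus called, apart from Z, at a share near that of all peaks or below it. By direction, higher calls were 12 of 12 in P, 10 of 12 in L, 7 of 8 in H, 9 of 13 in S, 12 of 15 in cG and 5 of 6 in Z. Of all called peaks, 54.1% were higher in P, 50.4% in L, 49.0% in H, 50.6% in S, 50.1% in cG and 70.3% in Z. The medians were 0.11 in P, 0.53 in L, 0.39 in H, 0.23 in S, 0.18 in cG and 0.10 in Z on the log2 scale. Over the 6 single ligands, Ccrl2 (a decoy-like receptor that binds chemerin) had 17 higher and 2 lower calls of 42, Ccr7 (the lymph node homing receptor) 14 higher of 54, Ccr1 13 higher and 1 lower of 42 and Ccr3 8 higher of 42. Ccr2, the receptor of Ccl2, Ccl7 and Ccl12, had 0 higher and 1 lower of 24. Of all 119464 tested peaks, 4964 (Z) to 16886 (S) were called higher by a single ligand. The higher shares of Ccrl2, Ccr7, Ccr1 and Ccr3 lie above that range. The lower share of Ccr2 lies inside the range of lower shares of all peaks given above. Some receptor windows on chromosome 9 adjoin and share peaks.

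Among the receptor peaks, the widest rise by the naming rule was at Ccr1. Its peak at chr9:123958839-123959089 stood at 1.30 and 1.44 CPM in P and at 0 counts in each control library, at least 8.93-fold higher against a floor of 3 counts over both controls (edgeR adjusted p 4.7e-05). The same bound was 5.12-fold in Z, 4.74-fold in H, 3.82-fold in L and 2.15-fold in cG. The other Ccr1 peak so named (chr9:123971154-123971561) rose in S to 1.44 and 1.60 CPM from 0 and 0.193. At Ccrl2 the peak at chr9:111052207-111054697 had 1.75 and 2.60 CPM in control, 8.71 and 10.5 in H and 19.6 and 16.5 in S (3.03 ± 0.25 on the log2 scale, edgeR adjusted p 1.3e-20). Lower receptor peaks in cG were at Ccr6 (-1.46 ± 0.55, edgeR adjusted p 0.040) and Ackr2, a chemokine scavenger (-1.07 ± 0.27, 0.0012).

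Other CC chemokine genes were described in the same way. Of 13, 10 had a peak in the window (Ccl8, Ccl19 and Ccl20 had none), with 61 peaks. Higher and lower calls were 3 and 2 in P, 4 and 6 in L, 3 and 0 in H, 8 and 3 in S, 5 and 0 in cG and 1 and 0 in Z, each a smaller share of the 61 than the share of all peaks given above for that ligand in either direction, with medians between 0.03 and 0.13 on the log2 scale. Over the 6 single ligands Ccl22 had 7 higher calls of 36 and Ccl17 5 of 54, both ligands of CCR4, while Ccl25, a gut chemokine, had 4 lower of 42. The shares of Ccl17 and Ccl25 lie inside the range of all peaks called in that direction by the single ligands. That of Ccl22 lies above the range. The lowest called values in L were at Ccl28, where the peak at chr13:119656985-119657213 went from 0.655 and 2.51 CPM in control to 0.212 and 0.270 (-2.67 ± 0.81, edgeR adjusted p 0.0088) and that at chr13:119649314-119649733 fell from 4.37 and 2.31 CPM in control to 1.13 and 0.378 in L (-2.18 ± 0.53, edgeR adjusted p 0.00084). Of the 11 peaks of the CXCR3 ligand genes, 8 were called higher in S and 0 in P, and of the 18 peaks of neutrophil-attracting CXC genes, 6 were called higher and 1 lower in P and 1 and 3 in S. Of all 119464 tested peaks, 16886 were called higher in S and 13259 in P. On 11 peaks, 0 calls in P are close to that share. The lower calls at the neutrophil-attracting genes, and the 1 higher call there in S, lie near or below the shares of all peaks given above. The 29 CC chemokine peaks had 11 higher calls in P and 14 in S, as given above. These lists were not tested against each other.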

How the data were processed

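ATAC-seq counts of 36 libraries were used, grouped by sample title into 18 groups of 2. The values are raw counts per peak and library as deposited by the authors, whole numbers without normalization, and a second deposited list gives the peak positions in mm10. The submitters' processing notes name Bowtie2 2.2.9, MACS2 (listed as version 1.4), bedtools and featureCounts. Handling of duplicates, shifting of read ends and pooling for peak calling are not given in the sources used here. All count columns matched a sample by title, and 0 were unused. Amplified reads carry no molecular identifiers, so counts are not independent molecules.

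The 1 mitochondrial peak was left out. Peaks with low counts were removed by filterByExpr (minimum count 10), which dropped 286 and left 119464. After TMM scaling, counts were fitted in edgeR 4.0.16 (R 4.3.3) by the quasi-likelihood method with robust, abundance-trended dispersion, 1 coefficient per group, all 36 libraries together and 18 residual degrees of freedom. P-values were adjusted by Benjamini-Hochberg over all tested peaks within a contrast. Contrasts were stimulation against control (17), pair against single (16), triplet against pair (9), pair interaction (8), triplet interaction (3) and single against single (15). Alternatives covered the scaling, the filter, thinning to 1 depth, a replicate block, the mitochondrial share as a covariate, the samples fitted, the window, leaving out each library and DESeq2 1.42.0. Those for single against single were chosen after seeing the data, and the scripts were tested on simulated data.

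Peaks were named by rule: those over a gene's start, that of highest mean CPM per gene, the 3 called most and fewest often among those of mean CPM at least 1, and the lowest p per interaction. The gene table (GRCm38.p6) has no strand, so a peak over either annotated end stood in for the start site of Ccl2, Ccl4, Ccl5 and Ccl7, a departure from the planned rule. The promoter table gave the start sites of Ccl3 and Ccl12. Peaks outside the rule are marked where they appear. The loci and gene lists were chosen with earlier results of these data known. The labels state no pairing of libraries by replicate number. The r of deviations was -0.04 to 0.03 over 153 pairs of groups, which cannot exclude a shared origin. No 2 replicates agreed within counting noise (chi-square per degree of freedom 2.04 or more). Results for 1 receptor gene are not reported here.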

Additional observations from a re-analysis of the deposited data

Results flagged for a closer look

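At some of the 29 CC chemokine peaks the change made by a ligand differed once a further ligand was added, tested as an interaction in edgeR. ScG had 12 such peaks, PcG 8, LH 7, PL 7, PS 6, ZS 5, ZcG 4 and PH 3, and in each of them the pair lay below the summed single changes on the log2 scale. Among triplets, PScG had 6, ZScG 5 and PLH 2, each above what its pairs and singles add up to. All 11 interactions share the 2 control libraries.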

How the results depend on the processing

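Calls at the 29 peaks numbered 238 for stimulations against control, 83 for pairs against singles, 13 for triplets against pairs, 52 and 13 for pair and triplet interactions, and 125 for single against single ligands, whose alternatives were chosen after seeing the data. These totals stayed within 1.5 times under median-of-ratios size factors, no filter, the mitochondrial peak kept, only the groups compared and DESeq2 (501 of all 524 calls kept). None of the kept calls changed sign. With the mitochondrial share as a covariate the totals were 157, 71, 5, 26, 2 and 90. Single stimulations then had 7 calls in L, 6 in H, 7 in S, 6 in cG, 9 in PS, 8 in PcG, 10 in PLH and 9 in PScG. Pair interactions had 1 in PL, 1 in PH, 4 in LH, 4 in ScG and 0 in ZcG, and triplet interactions 0 in PLH, 1 in PScG and 1 in ZScG. Scaling by total counts gave 21 triplet against pair calls and 24 triplet interactions, with 8 in PH, 13 in LH and 8 in ZcG among pair and 6 in PLH and 9 in ZScG among triplet interactions. It moved the median of all peaks by up to 0.45 and the share of higher among called peaks from 49.0% to 70.3% over the stimulations to 46.7% to 91.7%, and the 29 peaks had 282 higher and 4 lower calls in place of 228 and 10. Thinning to 1 depth gave 8 triplet interactions, 0 in PLH and 3 in ZScG, and fitting only the groups compared gave 1 in PLH. The cause was not tested. With windows of 50 kb, 30.3% of comparisons were called against control (48.3% at 10 kb), 10.7% for pairs (17.9%), 2.56% for triplets (4.98%), 10.4% and 5.98% for pair and triplet interactions (22.4% and 14.9%) and 17.4% for single against single (28.7%).

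When 1 library was left out, the remaining library of its group was assumed to vary like the other groups. The totals then ran from 188 to 239, 69 to 84, 8 to 13, 40 to 53, 9 to 13 and 112 to 119 in the order above, and 164 of the 238 calls against control were kept without any 1 library. Counts against control that moved by over 1.5 times were those of H (6 to 8, lowest without its first library), cG (9 to 12, without the second control), Z (1 to 4, without either control or its second library) and ZScG (12 to 16, without the second control). Pair interactions that did were PH (1 to 4, without the second control, P or H library or the first of PH), PcG (5 to 8, second control), ZS (3 to 5, second Z) and ZcG (1 to 4, first control, second cG or Z). Triplet interactions were PLH (0 to 2, without any of 14 of its 16 libraries) and PScG (3 to 6, without the second cG or first PcG).

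The labels tie libraries with the same replicate number together by that number only. Their deviations from the group means correlated by -0.04 to 0.03 over all tested peaks. An r near 0 over all peaks does not show that such libraries share no mouse, culture or day. With the replicate number as a block the totals were 234, 82, 13, 53, 13 and 125, and 519 of the 524 calls were kept. Depth limits the 8 peaks under 300 bp, with mean levels of 0.414 to 1.20 CPM.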
